A study of Homo sapiens with 10 samples.

Results

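Mitochondrial complex I, NADH:ubiquinone oxidoreductase, was examined in the RNA of human embryonic stem cells through its nuclear-encoded genes. The members were the protein-coding genes whose GENCODE symbol starts with NDUFA, NDUFB, NDUFC, NDUFS, NDUFV or NDUFAF. They numbered 47 of the 55841 genes in the count table, 39 with subunit symbols and 8 with the assembly factor symbols NDUFAF1 to NDUFAF8, and all 47 passed the filter on low counts. NDUFA7 was not analysed here.

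RNA sequencing had been done on 10 libraries of human embryonic stem cells, labelled as line HES9 and grown in mTeSR1 on Matrigel. The general population was not sorted, and HHH is the fraction sorted for high EPCAM, GCTM-2 and CD9, surface antigens that mark the most stem-like end of the culture. Batch 1 held general replicates 1 and 2 and HHH replicates 2 and 3, and batch 2 held general and HHH replicates 1 to 3. All libraries carry the same label for cell line and medium, no agent is labelled, and protein kinase C inhibitors, mentioned in the design text, are in no sample's label. The study's text names the line WA09, so the line rests here on the labels, and nothing says that replicates came from separate cultures, so that p-values measure the spread between these libraries, which may be technical.

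Complex I takes electrons from NADH and passes them to ubiquinone while pumping protons across the inner mitochondrial membrane. Its peripheral arm holds the N module, which oxidises NADH, and the Q module, which reduces the quinone. Its membrane arm, with a proximal and a distal part, holds the proton pumps encoded by mitochondrial DNA and many small accessory subunits encoded in the nucleus. Assembly factors build these modules and are not part of the finished enzyme. Human pluripotent stem cells are known for a high use of glycolysis beside respiration. By textbook module, the subunits here comprised 9 of the N module, 6 of the Q module, 9 of the proximal and 12 of the distal membrane arm. The remaining 3 were NDUFA4, now counted with complex IV, its paralogue NDUFA4L2, and the readthrough gene NDUFC2-KCTD14.

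The promoters of 4 members are shown, since these genes carry the results below: NDUFA12 and NDUFAF8, which passed the test over all libraries, and NDUFA5 and NDUFB3, which had the smallest adjusted p in batch 2. Each runs from 250 bases before to 50 bases after the RefSeq start on GRCh38.p14, and capitals mark matches on either strand to 3 motifs known from respiratory chain promoters. These were an NRF1 motif with a free base inside it, CCGGAAG for ETS factors such as GABPA, and AANATGGCG for YY1. None of the matches shown overlapped another.
NDUFA12, chr12:95003648-95003947, minus strand: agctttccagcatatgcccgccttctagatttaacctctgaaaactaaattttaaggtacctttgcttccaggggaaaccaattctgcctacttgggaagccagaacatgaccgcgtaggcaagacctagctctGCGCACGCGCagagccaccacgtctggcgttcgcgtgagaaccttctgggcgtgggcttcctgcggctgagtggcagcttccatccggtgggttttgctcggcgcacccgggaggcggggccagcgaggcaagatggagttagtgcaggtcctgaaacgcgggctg
NDUFAF8, chr17:81239061-81239360, plus strand: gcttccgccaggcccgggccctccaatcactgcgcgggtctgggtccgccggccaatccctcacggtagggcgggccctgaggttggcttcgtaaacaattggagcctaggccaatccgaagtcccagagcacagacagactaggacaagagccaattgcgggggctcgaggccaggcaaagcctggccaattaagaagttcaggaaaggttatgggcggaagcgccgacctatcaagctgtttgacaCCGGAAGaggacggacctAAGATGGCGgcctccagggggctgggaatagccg
NDUFA5, chr7:123557769-123558068, minus strand: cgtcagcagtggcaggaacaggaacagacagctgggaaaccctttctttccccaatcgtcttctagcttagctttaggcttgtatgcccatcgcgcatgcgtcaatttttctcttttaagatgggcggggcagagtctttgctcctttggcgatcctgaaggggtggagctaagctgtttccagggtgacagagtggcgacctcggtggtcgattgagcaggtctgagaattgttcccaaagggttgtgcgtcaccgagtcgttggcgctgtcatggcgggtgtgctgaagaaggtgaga
NDUFB3, chr2:201071751-201072050, plus strand: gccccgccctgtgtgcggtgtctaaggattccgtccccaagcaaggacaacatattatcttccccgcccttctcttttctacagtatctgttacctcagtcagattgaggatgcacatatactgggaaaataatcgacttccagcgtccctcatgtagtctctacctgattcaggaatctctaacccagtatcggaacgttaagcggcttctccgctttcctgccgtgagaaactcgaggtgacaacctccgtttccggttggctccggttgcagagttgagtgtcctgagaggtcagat

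The NDUFA12 window held the NRF1 motif and the NDUFAF8 window the ETS and YY1 motifs, while the windows of NDUFA5 and NDUFB3 held none of these letters. NDUFAF8 and NDUFA5 have 3 windows each in the table, and the window nearest the GENCODE start is printed. Of the 47 members 39 had a window. The YY1 motif was in a window of 11 of these, or 28.2%, against 3.85% of the 27305 genes in the table. The NRF1 motif was in 7, or 17.9%, against 6.98%, and the ETS motif in 7, or 17.9%, against 12.2%. These 27305 genes were not selected by gene type or expression, whereas all members are protein-coding and passed the count filter. A match is a description of these letters and says nothing of binding. Among the 7 genes with the NRF1 motif were NDUFA12, NDUFA9 and the assembly factor NDUFAF5, and among the 11 with the YY1 motif the core subunits NDUFS1, NDUFS3, NDUFS7, NDUFS8 and NDUFV2.

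Library totals ran from 47242595 to 78503395 counts, and levels are given in CPM, the read count scaled to a common library total. Defining markers of pluripotent cells were abundant in every library, POU5F1 at 461 to 641 CPM across HHH and 470 to 542 CPM across general libraries, with summed CPM of the 7 markers between 2949 and 4776. Of these, NANOG and the sort antigen EPCAM were higher in HHH and SOX2 and PODXL lower (edgeR adjusted p under 0.05). The 7 neural markers summed to 4.36 to 12.7 CPM in general and 1.16 to 1.47 CPM in HHH libraries, with 2 of the 3 tested lower in HHH, LHX5 giving most of the sum in general libraries (2.80 to 10.4 CPM) and PAX6 in HHH (0.744 to 1.07 CPM), and NEUROG2 at 0 in at least one library of each population. Mesendoderm and endoderm markers summed to at most 2.59 CPM in any library. The 6 genes listed as fibroblast markers summed to 260 to 278 CPM in general and 288 to 342 CPM in HHH libraries. Nearly all of it was THY1, COL1A2 and COL1A1. THY1, at 135 to 157 CPM in general, was higher in HHH at 189 to 245 CPM (log2 0.61, edgeR adjusted p 0.000452). COL1A1 was lower (-0.94, adjusted p 0.00334), while COL3A1, DCN and LUM did not exceed 0.123 CPM. The higher sum in HHH thus came from THY1 and does not show more fibroblast RNA. Whether any of this RNA came from other cell types was not tested, nor was a part of such cells in the complex I results.

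In levels per transcript length, the small proximal arm subunit NDUFS5 stood highest at 8.05 ± 0.22 (SD, n = 5) log2 RPKM in general and 8.07 ± 0.24 in HHH libraries. RPKM scales reads to transcript length and library total, here as the authors' log2 values after batch correction. The distal arm subunits NDUFB7 and NDUFB10 followed at 6.24 and 5.89 log2 RPKM over all libraries, with SDs of 0.28 and 0.18 between HHH libraries. NDUFB10 and the next in order, NDUFA4 at 5.87 and NDUFA1 at 5.84, did not differ beyond their spread. NDUFA4L2, a gene known for induction by low oxygen, was lowest at -2.20 log2 RPKM, with 24 to 54 counts a library. Assembly factors ranked low among the members, from NDUFAF7 at 4.06 (place 28 of 47) to NDUFAF6 at 0.59 (place 46), with a median of 3.17 against 4.52 log2 RPKM for the subunits. The core quinone-site subunit NDUFS7 stood beside them at 1.79, but its annotated exons cover 7456 bases, which lowers a level per exonic length. Of the exonic bases of NDUFS7 36.1% lie under another gene on either strand, as do 99.6% of NDUFC2-KCTD14, which lies over NDUFC2. Shares among the other members reach 48.5%. Reads of such genes may be split or shared in the counting. The same holds for 19 members with at least 1 processed pseudogene of their name in the table, such as NDUFA5 and NDUFB4 with 12 pseudogene rows each, NDUFS5 with 6 and NDUFA12 with 1.

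Whether the sorted HHH cells carried more or less complex I RNA than the unsorted culture was asked first over all 10 libraries with batch as a term. In HHH, 2 of the 47 members were higher and 0 were lower at an adjusted p under 0.05 (edgeR quasi-likelihood test, adjusted by Benjamini-Hochberg over all 23552 genes). That is 4.26% of the members, near the background of 5.83% of all genes called in either direction, with 1.94% called higher and 3.89% lower. The 2 genes were the N module subunit NDUFA12 and the assembly factor NDUFAF8, and neither exceeded 1.5-fold, whereas 2.98% of all genes were called beyond that fold. In bulk RNA, fewer cells of a type and less RNA per cell cannot be told apart.

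NDUFA12 is an accessory subunit of the N module, encoded on the minus strand at chr12:94895297-95003748 (GRCh38, GENCODE 44). It measured 33.8 and 36.6 CPM in the general libraries of batch 1 and 45.3 and 39.7 CPM in HHH. In batch 2 it measured 25.3, 26.2 and 24.7 CPM in general and 30.8, 31.7 and 40.3 CPM in HHH libraries. The populations did not overlap in either batch, and HHH replicate 3 of batch 2 was the highest of its batch. The log2 fold change over all libraries was 0.37 ± 0.09 (SE), with an adjusted p of 0.0197 in edgeR. Without HHH replicate 2 of batch 1, general replicate 1 of batch 2 or general replicate 3 of batch 2 the value was 0.36, 0.36 and 0.34 and no longer passed.

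NDUFAF8, at chr17:81239305-81241310 on the plus strand, stabilises NDUFAF5, the enzyme that hydroxylates an arginine of NDUFS7 during assembly. Its libraries of batch 1 gave 14.6 and 17.0 CPM in general and 24.8 and 20.8 CPM in HHH. Those of batch 2 gave 9.69, 8.95 and 9.52 CPM in general and 10.9, 11.1 and 13.1 CPM in HHH. HHH lay above general without overlap in both batches, from a level that was lower in batch 2 throughout. The log2 fold change was 0.41 ± 0.09 (SE), adjusted p 0.016 in edgeR, and the call held without any 1 of the 10 libraries. NDUFAF8 passed in neither batch 1 nor batch 2 alone (edgeR adjusted p 0.204 and 0.0593). Its partner NDUFAF5 had a log2 fold change of 0.22 ± 0.11 (adjusted p 0.247), and NDUFS7 one of 0.06 ± 0.07 (adjusted p 0.68).

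**Figure D1:**
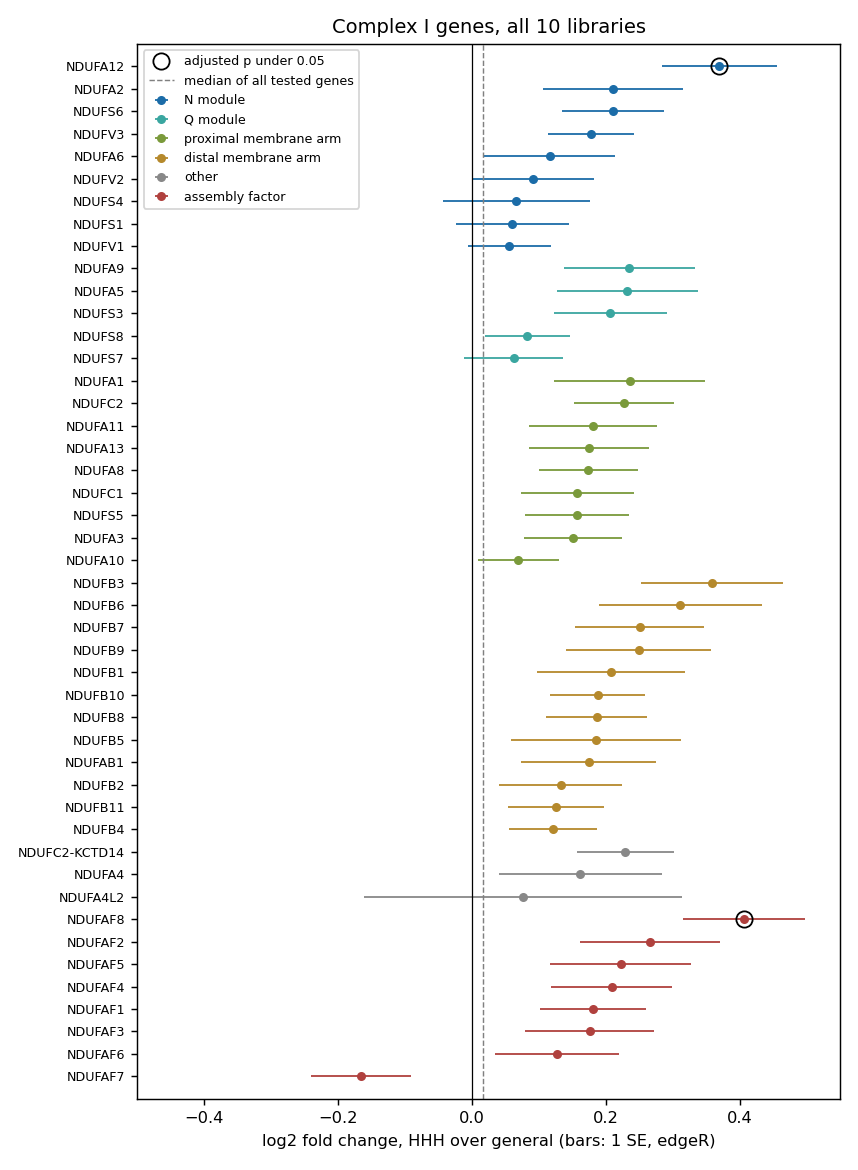
Log2 fold change of HHH over general for 46 of the 47 members over all 10 libraries, with bars of 1 SE and genes grouped by module. Circled points passed an adjusted p under 0.05, and the dashed line is the median of all tested genes. The subunits lie above 0 under this scaling, and NDUFAF7 is the only member below it; on the deposited log2 values, not centred, 26 of the 39 subunits lay above 0.

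The estimates of the other members were small and mostly of the same sign. All 39 subunits and 7 of the 8 assembly factors had a log2 fold change above 0, against 53.0% of all genes tested, with a median of 0.17 for subunits, 0.19 for assembly factors and 0.02 for all genes. Of the 39 subunits 39 lay above 0 with RLE scaling and 38 with upper quartile scaling or library size alone. The authors' log2 RPKM, tested with limma, differ in values, batch correction and test together, and there the median of all genes was -0.12 with medians of 0.03 for subunits and 0.06 for assembly factors, and 26 of 39 subunits and 6 of 8 assembly factors lay above 0. After centring each library on its median, an alternative chosen after seeing the data, the counts were 39 and 7. The highest subunit was NDUFA12 at 0.37. By module the median was 0.12 for the N module, 0.14 for the Q module, 0.17 for the proximal and 0.19 for the distal membrane arm. In the same order the medians were 0.05, 0.08, 0.05 and 0.05 in batch 1 alone. In batch 2 alone they were 0.21, 0.16, 0.23 and 0.27. These are descriptions of lists whose genes share the same libraries.

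The 7 core subunits encoded in the nucleus carry the flavin, the iron-sulphur clusters and the quinone site. Over all libraries they had a median of 0.06 against 0.18 for the 29 accessory subunits. Core and accessory medians were 0.07 and 0.05 in batch 1 alone, and 0.04 and 0.25 in batch 2 alone. None of the 7 passed. NDUFV1, which binds NADH and the flavin, measured 79.3 and 74.3 CPM in general and 79.4 and 82.1 CPM in HHH libraries of batch 1. In batch 2 it measured 75.6, 78.1 and 74.3 CPM in general and 75.8, 83.2 and 76.2 CPM in HHH. The populations overlapped in batch 2, and the log2 fold change was 0.06 ± 0.06 (adjusted p 0.654). NDUFS7, NDUFS8, NDUFS1 and NDUFV2, carriers of iron-sulphur clusters, had log2 fold changes of 0.06 to 0.09. NDUFS3, a core subunit of the Q module without a cluster, was the highest at 0.21 ± 0.08 (adjusted p 0.179). On the authors' log2 RPKM, not centred, NDUFS1, NDUFS7, NDUFS8, NDUFV1 and NDUFV2 were below 0.

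The distal arm subunits NDUFB3 and NDUFB6 had the largest fold changes after the called genes. NDUFB3 had a log2 fold change of 0.36 ± 0.11 with an adjusted p of 0.0636, and it passed, at 0.43, when replicate numbers were used as a block to pair the libraries. It also passed without general replicate 2 of batch 1 (0.41) and without HHH replicate 3 of batch 1 (0.43). NDUFB6 followed at 0.31 ± 0.12 (adjusted p 0.159) and passed, at 0.40, without HHH replicate 3 of batch 1. NDUFB7 had 0.25 ± 0.10 (adjusted p 0.156). NDUFAB1, the mitochondrial acyl carrier protein, had 0.17 ± 0.10, with overlapping populations in both batches.

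Among the assembly factors, NDUFAF2, a paralogue of NDUFA12, had the next value after NDUFAF8 at 0.27 ± 0.10 (adjusted p 0.161). NDUFAF4 and NDUFAF3, which act together on the Q module, had 0.21 ± 0.09 and 0.18 ± 0.10. NDUFAF1, of the assembly complex of the membrane arm, had 0.18 ± 0.08, and NDUFAF6, which acts early on the mitochondrial subunit MT-ND1, had 0.13 ± 0.09. NDUFAF7, a mitochondrial arginine methyltransferase, was the one member with a negative value, -0.17 ± 0.07 (adjusted p 0.224). It measured 62.4 and 60.1 CPM in general and 51.8 and 53.2 CPM in HHH in batch 1, and 65.7 to 76.0 CPM in general and 58.5 to 73.2 CPM in HHH in batch 2. HHH was below general in batch 1 and overlapped it in batch 2.

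The medians of subunits and assembly factors lay close together. That of the subunits minus that of the assembly factors was -0.02 over all libraries. In the 5 HHH libraries the same difference, taken from each library's deviations from the general mean of its batch, ranged from -0.08 to 0.05, and in the general libraries from -0.08 to 0.12. The deviation of the subunits was 0.13 and 0.02 in HHH replicates 2 and 3 of batch 1 and 0.13, 0.14 and 0.45 in HHH replicates 1 to 3 of batch 2. That of the assembly factors was 0.20 and 0.00 in batch 1 and 0.16, 0.22 and 0.40 in batch 2. HHH replicate 3 of batch 2 was the highest in both lists, and without it the median log2 fold change was 0.10 for the subunits and 0.15 for the assembly factors. The summed subunit level of that library was 2890 CPM against 2377 and 2406 CPM in the other HHH libraries and 2073 to 2248 CPM in the general libraries of its batch.

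**Figure D2:**
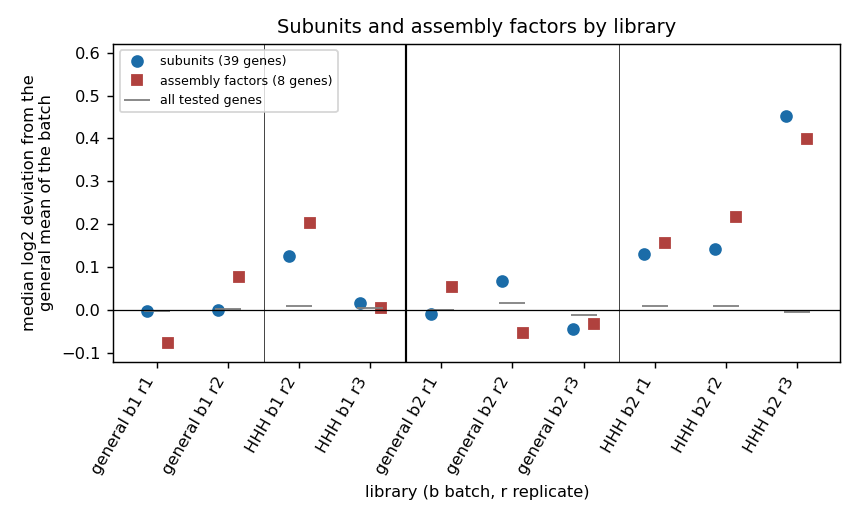
Median log2 deviation from the general mean of the batch, per library, for 39 subunits (circles), 8 assembly factors (squares) and all tested genes (dashes). HHH replicate 3 of batch 2 lies highest, at 0.45 and 0.40, and HHH replicate 3 of batch 1 lies near 0.

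Within batch 1 alone, 0 of the 47 members passed in edgeR (background 0.573% of 23720 genes), and none by DESeq2 or limma voom. At an unadjusted p under 0.05, edgeR gave 3, NDUFAF8, NDUFAF3 and NDUFS6, or 6.38% against 12.5% of all genes. Of the subunits 29 of 39 and of the assembly factors 7 of 8 lay above 0, against 50.8% of all genes. The subunit median was 0.05 and that of the assembly factors 0.09. Both HHH libraries were above both general libraries for 15 members, 31.9% against a background of 22.5%. Both were below for NDUFAF7, NDUFS1, NDUFS4, NDUFB5 and NDUFA4, 10.6% against 21.0%.

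Within batch 2 alone, 8 members were higher and 0 lower in HHH. This is 17.0% of the members against 13.2% of all genes in either direction, 5.13% being called higher and 8.05% lower. From the Q module NDUFA5 rose by 0.44 ± 0.09 (edgeR adjusted p 0.0076) and NDUFA9 by 0.34 ± 0.10 (0.0493). From the distal arm NDUFB3 rose by 0.53 ± 0.11 (0.00871), NDUFB6 by 0.49 ± 0.13 (0.0289), NDUFB5 by 0.44 ± 0.12 (0.0312) and NDUFB9 by 0.38 ± 0.11 (0.0444). NDUFA12 rose by 0.43 ± 0.10 (0.018) and NDUFAF4 by 0.32 ± 0.10 (0.0465), each as log2 fold change. None of the 8 exceeded 1.5-fold, where 4.90% of all genes were called beyond it.

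NDUFB3, an accessory subunit of the distal arm, measured 18.7, 19.0 and 18.0 CPM in general and 24.5, 24.0 and 32.6 CPM in HHH libraries of batch 2. In batch 1 it had measured 26.9 and 27.7 CPM in general and 30.7 and 27.2 CPM in HHH, with overlap. NDUFA5, an accessory subunit of the Q module, measured 45.9, 47.7 and 42.1 CPM in general and 59.2, 57.3 and 68.9 CPM in HHH of batch 2. Its values in batch 1 were 57.5 and 63.0 CPM in general and 61.4 and 51.3 CPM in HHH. In both genes HHH replicate 3 was the highest library of batch 2, yet the other HHH libraries also lay above all general ones. NDUFA5 and NDUFB3 passed in batch 2 without any 1 of its 6 libraries. The count of members passing fell to 3 without HHH replicate 3 (NDUFA5, NDUFA12 and NDUFB3), to 3 without general replicate 1 and to 2 without general replicate 3.

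All 3 HHH libraries lay above all 3 general libraries of batch 2 for 27 members, 57.4% against a background of 18.1%, and below for 0 members, against 18.2%. Of the subunits 36 of 39 had a log2 fold change above 0, against 49.0% of all genes, and the medians were 0.24 for subunits and 0.26 for assembly factors, against -0.01 for all genes. Separation in both batches with HHH above held for 6 members, 12.8% against 3.93%, and with HHH below for 0, against 5.42%. They were NDUFA12, NDUFAF8, NDUFAF1, NDUFB10, NDUFV3 and NDUFC2-KCTD14. NDUFV3, for example, measured 36.8 and 40.1 against 42.0 and 41.9 CPM in batch 1 and 35.6, 39.7 and 35.9 against 43.1, 43.7 and 42.2 CPM in batch 2, general first.

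**Figure D3:**
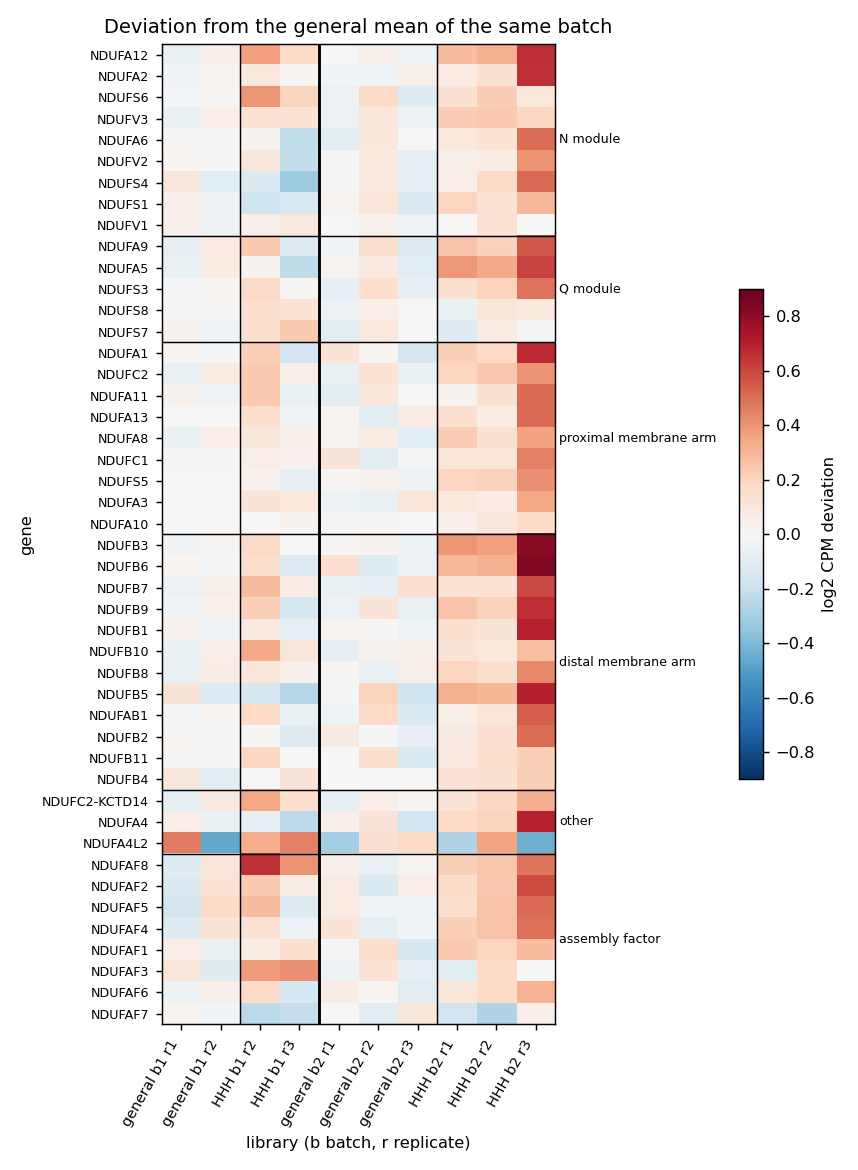
Log2 deviation of 46 of the 47 members (rows, by module) from the mean of the general libraries of its batch in each of the 10 libraries (columns). Red is above and blue below that mean; the column of HHH replicate 3 of batch 2 is the reddest, and NDUFAF7 is blue in 4 of the 5 HHH columns.

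The batches were then compared directly. The interaction of batch and population was passed by 0 members in edgeR, where 0.777% of all genes passed, while DESeq2 called 2, NDUFA5 and NDUFB5. At an unadjusted p under 0.05 edgeR gave 9 members, 19.1% against 18.9% of all genes. NDUFB5, of the distal arm, measured 92.0 and 78.7 CPM in general and 77.0 and 71.3 CPM in HHH of batch 1. In batch 2 it measured 52.2, 60.6 and 46.6 CPM in general and 66.0, 65.0 and 85.8 CPM in HHH. HHH was thus below general in batch 1 and above it in batch 2, with an interaction of 0.65 ± 0.19 (log2, edgeR adjusted p 0.12). NDUFS1, the largest core subunit, and NDUFA4 also lay below without overlap in batch 1 and above in batch 2, with interactions of 0.37 ± 0.14 (adjusted p 0.186) and 0.53 ± 0.20 (adjusted p 0.195). NDUFAF3 ran the other way, at 14.1 and 12.1 against 17.0 and 17.4 CPM in batch 1, and with overlap in batch 2 (interaction -0.36 ± 0.17, adjusted p 0.256).

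**Figure D4:**
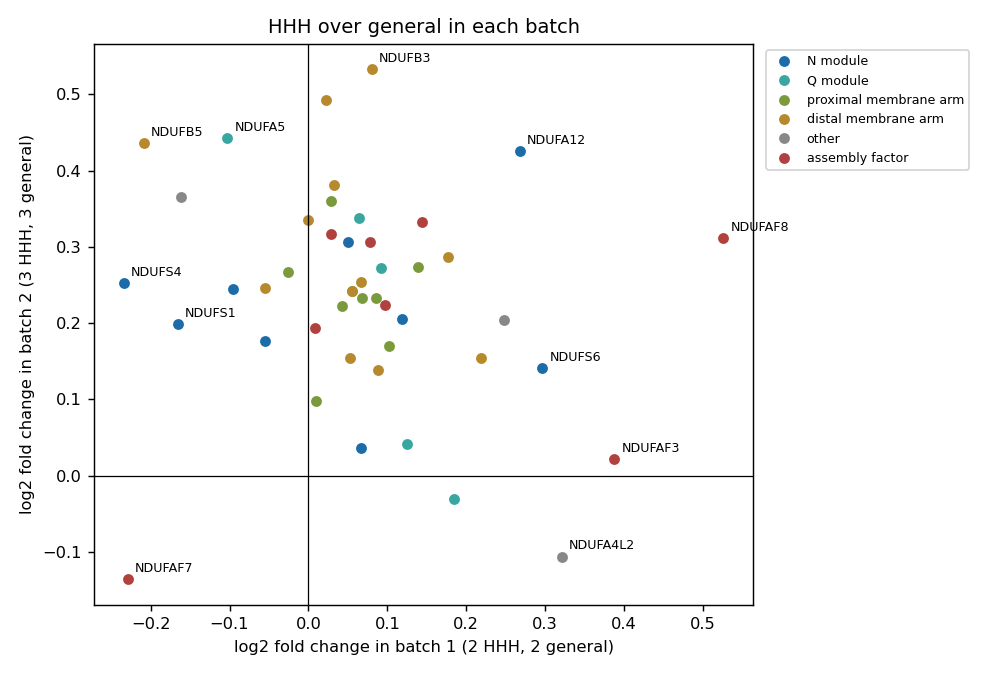
Log2 fold change of HHH over general in batch 1 (horizontal) and batch 2 (vertical) for 46 of the 47 members, coloured by module. In batches 1 and 2, NDUFA12 lies at 0.27 and 0.43 and NDUFAF8 at 0.53 and 0.31. NDUFB5, NDUFA5, NDUFS4 and NDUFS1 are negative in batch 1 and positive in batch 2, and NDUFAF3 is near 0 in batch 2.

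Across the members the log2 fold changes of the batches had a Pearson r of -0.17 (47 genes) and, for subunits alone, of -0.36 (39 genes), against 0.29 over 22882 genes tested in both. GC content moved with them. Its Spearman correlation with the fold change over the 47 members was 0.59 in batch 1 and -0.50 in batch 2, and over all genes 0.23 and -0.35. These correlations are descriptions over genes that share libraries, and genes are not independent replicates. With the trend on GC content taken out of every library, 0 members passed in batch 1 (0.346% of all genes), 16 in batch 2 (11.8% of all genes), 6 over all libraries (7.68% of all genes) and 0 in the interaction. NDUFA9, NDUFB9 and NDUFAF4, called in batch 2 above, were not among the 16. Subunits above 0 then numbered 28 of 39 in batch 1 and 39 of 39 in batch 2.

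**Figure D5:**
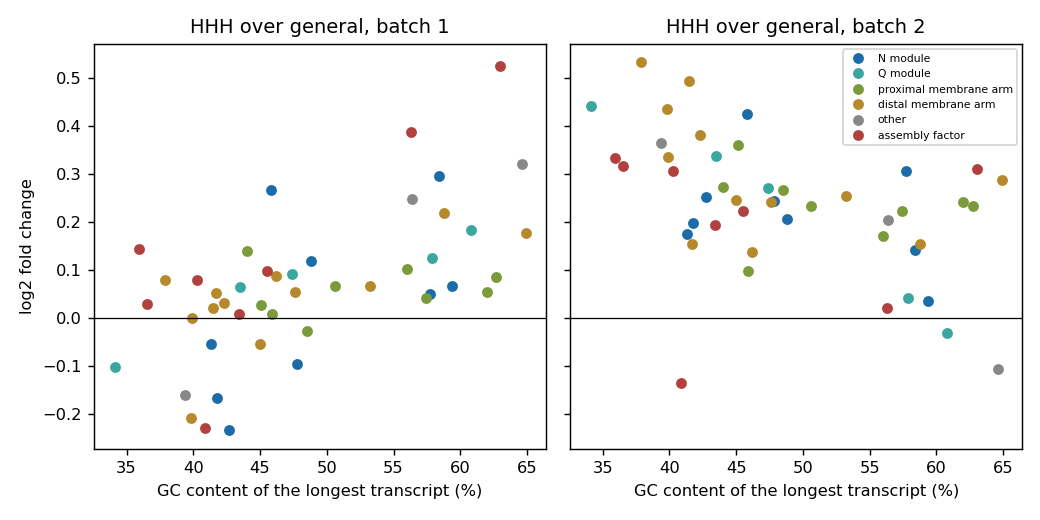
Log2 fold change of HHH over general against the GC content of the longest transcript for 46 of the 47 members, in batch 1 (left) and batch 2 (right). The points rise with GC content in batch 1 (Spearman 0.59 over all 47) and fall with it in batch 2 (Spearman -0.50).

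More members passed between the batches than between the populations. With population in the model, 27 of 47 passed between batch 2 and batch 1, 57.4% against 47.9% of all genes. Of these 26 were lower in batch 2, 55.3% against 23.9%, and 1 was higher, against 24.0%, namely NDUFAF7 by 0.26 ± 0.08 (edgeR adjusted p 0.0136). NDUFAF8 was lower by a log2 change of -0.86 ± 0.09 (adjusted p 6.09e-06) and NDUFA9 by -0.66 ± 0.10 (adjusted p 0.000117), and these 2 exceeded 1.5-fold, 4.26% of the members against 21.5% of all genes. In the distal arm 9 of 12 members passed, in the N module 4 of 9, in the Q module 2 of 6 and among assembly factors 6 of 8. The share of counts on small nuclear and nucleolar RNAs also differed, 2.71% to 4.97% in batch 1 and 0.418% to 0.727% in batch 2, and its part in the difference was not tested.

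Other genes of the respiratory chain were read from lists. As background, 5.83% of all genes passed over all libraries and 0.777% in the interaction. In batch 2 13.2% passed, 5.13% higher and 8.05% lower. The 7 subunits of complex I encoded in mitochondrial DNA had negative log2 fold changes over all libraries, with a median of -0.31, opposite in sign to the nuclear subunits. Of these MT-ND1 fell by 0.41 ± 0.10 on the log2 scale (edgeR adjusted p 0.0233) and MT-ND4 by 0.48 ± 0.13 (adjusted p 0.0375). Both passed in batch 2 alone, whose libraries are among the 10, and neither in batch 1 alone (edgeR adjusted p 0.446 and 0.458). The share of all counts on mitochondrial genes was 0.234% to 0.407% in the 10 libraries. Of 11 further assembly factors 0 passed over all libraries, and in batch 2 TIMMDC1, NUBPL and DMAC1 were higher. Of the listed subunits of complexes II to V none passed over all libraries, with medians of 0.17, 0.14, 0.12 and 0.16 in the order of the complexes. In batch 2 SDHD, UQCRQ, ATP5MC1 and ATP5MC3 were higher. These are 1 of 4, 1 of 9, 0 of 10 and 2 of 15 genes in the order of the complexes. Of 11 regulators of respiratory chain genes 0 passed over all libraries, and in batch 2 PPARGC1A (0.49 ± 0.14), TFB1M (0.32 ± 0.10) and TFB2M (0.41 ± 0.10) were higher. The interaction of batch and population was passed by 1 gene of these lists, ATP5F1D of complex V (-0.88 ± 0.14, adjusted p 0.0142). Apart from the mitochondrially encoded genes, the medians of these lists lay between 0.18 and 0.30 in batch 2 and between -0.06 and 0.00 in batch 1.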

How the data were processed

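RNA of 10 libraries (general and HHH in batches 1 and 2) was extracted with Qiagen kits and sequenced from TruSeq libraries. The authors deposited raw read counts per gene and a table of log2 RPKM after TMM scaling and batch correction, empty where a count is 0, which enters here as a score. The submitters' processing notes name CASAVA 1.8.2, R 3.2.2, limma 3.26.9 and GRCh37; the aligner, counting tool and annotation are not given in the sources used here. Of the gene identifiers 49395 of 55841 (88.5%) matched GENCODE 44, whose GRCh38 coordinates are printed.

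Counts were tested with edgeR 4.0.16 in R 4.3.3 (quasi-likelihood F test, two-sided, TMM, filterByExpr with a minimum count of 10, batch and population as terms), over all genes, with Benjamini-Hochberg adjustment and a threshold of 0.05. The SE of a log2 fold change was taken from its F statistic. Alternatives used DESeq2 1.42.0, limma 3.58.1, other scalings, filters and thresholds, GC and length trends as splines with 5 degrees of freedom, and each library left out. Scripts were tested on simulated counts. Groups came from sample titles. No 2 replicates agreed within sampling noise. Same-numbered libraries of batch 2 deviated together (correlations of 0.24, 0.14 and 0.11). Batch 1, with 2 libraries a group and 1 shared number, cannot show pairing. The main fits did not pair the libraries, so their p-values and SEs leave any pairing out. A block on replicate number was run as an alternative, with blocked values given where a call changed. One member counts in the lists and is not reported by name here. Members and lists were chosen with earlier results of these data known. Named genes were the core subunits, the assembly factors, all passing members, those with the largest fold changes (at least 1 CPM), the first 5 of batch 2, the 3 highest and 3 lowest in RPKM, and edge cases; NDUFA9, NDUFB9, NDUFV3, NDUFS4 and NDUFS6 were added after their values were seen. Counting error is small at these totals, and 3 counts, the floor of a level, are 0.046 to 0.069 CPM.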

Additional observations from a re-analysis of the deposited data

Results flagged for a closer look

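Of 60 groups of 5 libraries examined for a library far from the others, 2 were flagged. With independent values chance flags about 1 in 20. These values were centred on the general mean of each batch and the groups share libraries, so that rate need not hold here. In HHH, replicate 3 of batch 2 had a median deviation of 0.45 (log2) over the 39 subunits, and its gap to the nearest of the other HHH libraries, which lay between 0.02 and 0.14, was 0.71 of the range. For the core subunit NDUFS8, HHH replicate 1 of batch 2 lay lowest at -0.0565, with a gap of 0.739 of the range. In edgeR, 0 of the 47 members passed the test of a difference between batches in the effect of population.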

How the results depend on the processing

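Over all libraries, 2 members passed. The count was 0 with no batch term, on the deposited log2 RPKM, at an adjusted p under 0.01 and at a fold over 1.5. It was 1 by library size alone and, added after seeing the data, on the log2 RPKM with libraries centred. It was 4 with no filter, 6 with the GC trend removed and 11 with the replicate block and the GC trend removed, where 5.46%, 7.68% and 10.7% of all genes passed, against 5.83%. Leaving out each library gave 1 to 9, the 9 without HHH replicate 3 of batch 1, where 9.79% of all genes passed. With the replicate block alone, which pairs same-numbered libraries, 3 members passed, NDUFB3 joining the others, the subunit median was 0.21, and no other call changed. In batch 2 alone (8 passing) the count was 4 by library size alone, 14 in DESeq2, 16 with the GC trend removed, 2 at an adjusted p under 0.01, 0 at a fold over 1.5, and 2 to 12 on leaving out each library. The interaction gave 2 in DESeq2. The subunit median minus the assembly factor median was 0.044 with the block and the GC trend removed. The causes of these shifts were not tested.

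On the deposited log2 RPKM, where the median of all genes was -0.12, members above 0 fell from 46 to 32; those that turned included NDUFA4L2 (-0.049), NDUFAF6 (-0.016), NDUFS1 (-0.077), NDUFS7 (-0.077), NDUFS8 (-0.057), NDUFV1 (-0.084) and NDUFV2 (-0.055). On leaving out each library NDUFS1 ranged from -0.00059 to 0.109 and NDUFA4L2 from -0.089 to 0.193. NDUFA12 and NDUFAF8 kept their direction in every alternative run. NDUFAF8 no longer passed by library size alone (0.36), with no batch term (0.43) or on the log2 RPKM (0.26), and NDUFA12 with no batch term (0.36) or on the log2 RPKM (0.22, centred 0.38). NDUFA4L2, at 24 to 54 counts, is the member whose depth limits it most.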
